A study of Mus musculus with 4 samples.

Results

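The Schlafen family of the mouse was followed through 7 genes, Slfn1, Slfn2, Slfn3, Slfn4, Slfn5, Slfn8 and Slfn9, picked by exact symbol from the 33677 rows of a raw count table. The cells were PyMT-A, a mammary tumour line of the FVB/NJ strain named after the polyoma middle T oncogene. Of the 4 poly(A) RNA libraries, 2 came from PyMT-A cells infected with PMSCV-puro, the retroviral vector without Jagged1 (vector 1 and 2), and 2 from PyMT-A cells infected with PMSCV-Jagged1, which carries the Notch ligand Jagged1 (Jagged1 1 and 2). All were grown in DMEM with serum and antibiotics, with no other treatment named. The libraries let the RNA of cultured tumour cells with and without added Jagged1 be set side by side. The labels do not say whether either line is a clone or a mixed population, whether the replicates were separate cultures, or from which species the Jagged1 cDNA came. Every spread below is therefore the spread between these libraries, which may be technical.

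Schlafen genes are found in mammals as a small family whose members share an amino-terminal core. The short proteins (Slfn1, Slfn2) hold little more than that core, the intermediate ones (Slfn3, Slfn4) add a linker region, and the long ones (Slfn5, Slfn8, Slfn9 and Slfn14) add a part that resembles a helicase. Many of them are switched on by type I interferon, and several bind or cut transfer RNA. The family has been linked to antiviral defence and to the quiescence of T cells and myeloid cells. The members were proposed with results of the Jagged1 against vector contrast in view. Their differences between the lines are therefore given as a description, with no p-value.

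Total counts ran from 12136227 (vector 2) to 20835208 (Jagged1 1), and the detection floor of 3 counts was worth 0.145 to 0.244 CPM. CPM are counts divided by library sizes that were scaled with TMM factors and set to a common size. The 18S ribosomal row took 0.982% of the counts in vector 1, against 0.0735% to 0.177% in the other libraries. The transduced gene Jag1 stood at 10.5 and 9.12 CPM in the vector libraries and at 275 and 324 CPM in the Jagged1 libraries, as the labels have it. It was the 1 gene of 13299 called by edgeR at an adjusted p under 0.05 (0.00752% of those tested), and edgeR called 0 genes when vector 1 or vector 2 was left out. The levels of Krt7, Krt8 and Epcam fitted the label, with averages of 1690, 1010 and 919 CPM over the libraries. The keratin gene Krt14 averaged 444 CPM, from 225 CPM in vector 2 to 741 CPM in Jagged1 1. Of the other listed epithelial markers, Krt5 and Krt19 had at most 2 counts in any library. The T cell genes Cd3e, Cd4 and Cd8a were at 0 in all libraries, and the pan-leukocyte gene Ptprc had at most 1 count. Of the leukocyte markers S100a8, Lyz2 and Cd68 had the highest levels, the last 2 at no more than 6.43 and 2.61 CPM. The summed level of 9 fibroblast and endothelial markers was 4.03 and 7.9 CPM in the vector libraries and 9.34 and 22.2 CPM in the Jagged1 libraries, mostly from Pdgfra, Cdh5 and Pdgfrb, with Lum at 0. It moved with the lines, and its part in the results below was not tested.

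The 7 genes lie in 1 cluster on chromosome 11, from 82951349 to 83215154 (GRCm38, 264 kb), all annotated as protein coding, 5 on the plus strand and 2 on the minus strand. From left to right they are Slfn5 (plus), Slfn9 and Slfn8 (minus), then Slfn2, Slfn1, Slfn4 and Slfn3 (plus), with the pseudogene Slfn10-ps between Slfn8 and Slfn2. Slfn4 (83175186 to 83190216) ends 1113 bases before Slfn3 (83191330 to 83215154) begins. The promoters of the plus-strand short and intermediate genes are shown first, because Slfn3 is the gene that differed most between the lines while its neighbour Slfn4 has much the same coding sequence. RefSeq windows (GRCm38.p6, 250 bases before to 50 after the gene's start) were present for all 7 members, with 8 windows in all. They hold the reference strain's bases, not those of the FVB/NJ cells. The Slfn3 window spans chr11:83191080-83191379 on the plus strand, and the other windows are cut to the run they share with it, at chr11:83175088-83175146 (Slfn4), chr11:83065032-83065090 (Slfn2) and chr11:83116721-83116779 (Slfn1), all on the plus strand. Capitals mark ACTTCCTGG, the longest run of bases that these 4 promoters have in common.
Slfn3: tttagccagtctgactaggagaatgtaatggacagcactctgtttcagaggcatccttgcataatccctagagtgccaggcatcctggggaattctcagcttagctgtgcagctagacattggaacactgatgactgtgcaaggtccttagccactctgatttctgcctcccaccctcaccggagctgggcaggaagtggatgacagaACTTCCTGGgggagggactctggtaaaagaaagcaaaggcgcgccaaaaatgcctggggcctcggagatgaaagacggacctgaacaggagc
Slfn4: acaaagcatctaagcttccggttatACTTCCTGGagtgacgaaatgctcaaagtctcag
Slfn2: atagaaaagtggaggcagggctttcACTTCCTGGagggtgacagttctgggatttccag
Slfn1: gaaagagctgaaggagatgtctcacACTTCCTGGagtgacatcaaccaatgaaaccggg
The run begins 42 bases before the start of Slfn3, 73 before Slfn4, 55 before Slfn2 and 74 before Slfn1, on the gene's own strand each time. It was found in these promoters and then counted, on both strands, in 277 of all 32851 RefSeq promoter windows (0.843%). No window of Slfn5, Slfn8 or Slfn9 holds it.

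The long genes showed another feature. The core of the interferon-stimulated response element, searched on both strands as GAAA, 2 bases of any kind and GAAA again, was present in the windows of 3 members, Slfn9, Slfn8 and Slfn5, and in 1131 of all 32851 windows (3.44%). Printed on the gene's strand, with the match in capitals, these are chr11:82991841-82991900 (Slfn9, minus), chr11:83020824-83020883 (Slfn8, minus) and chr11:82951922-82951981 (Slfn5, plus).
Slfn9: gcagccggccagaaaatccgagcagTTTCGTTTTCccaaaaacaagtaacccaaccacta
Slfn8: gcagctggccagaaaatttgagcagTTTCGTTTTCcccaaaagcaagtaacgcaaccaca
Slfn5: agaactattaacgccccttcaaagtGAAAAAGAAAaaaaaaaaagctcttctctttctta
The matches of Slfn9 and Slfn8 are on the reverse strand and begin 45 and 48 bases before the RefSeq start, and that of Slfn5 begins 155 bases before it and runs into a stretch of A. Slfn8 has 2 RefSeq starts, and its match lies 136 bases before the other one. The gamma-activated site (TTCNNNGAA, 8.3% of windows) and the binding motif of the Notch effector RBPJ (GTGGGAA, 6.38% of windows) were not found in the window of any member. A match is only a match of letters, and a missing match says nothing beyond these letters and this window.

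Reads of close copies cannot be fully told apart in gene counts, and this bears on every value below. Over the aligned bases, the coding sequences of Slfn3 and Slfn4 were 92.3% identical and those of Slfn8 and Slfn9 92.7%, whereas Slfn2 was 75.2% identical to Slfn3 and Slfn5 63.6% to Slfn9. Coding lengths were 1011 and 1134 bases for Slfn1 and Slfn2, 1920 and 1806 for Slfn3 and Slfn4, and 2652, 2730 and 2730 for Slfn5, Slfn8 and Slfn9. Of all windows of 50 bases in the longest coding transcript, 21.8% of those of Slfn3 also occur in transcripts of another gene, namely Slfn4, the pseudogene Gm11427 to its right and Slfn1. That share was 11.6% for Slfn4, 15.4% for Slfn8, 11.9% for Slfn9 and 4.27% for Slfn2. With windows of 100 bases it was 4.93% for Slfn3, all of it shared with Gm11427, 0.285% for Slfn4, 3.71% for Slfn8 and 3.9% for Slfn9. The Slfn3 transcript used held 1966 bases, against 3411 bases in all annotated Slfn3 exons, so its other exon bases were not examined. How reads that map to several places were counted is not given in the sources used here, nor is the read length or the strand setting. The antisense gene Slfn5os shares windows of 50 bases with Slfn5, so without a known strand setting their reads may not have been separated. For Slfn2 the only gene with such shared windows was Slfn4, so the antisense gene Gm20234 shared none with it.

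Of the 7 members, 5 passed the filter on low counts (Slfn2, Slfn3, Slfn4, Slfn8 and Slfn9), each with more than 10 counts in every library of both lines, and 2 did not (Slfn1 and Slfn5). Together the 7 genes took 524 and 532 CPM in the vector libraries, and 333 and 439 CPM in Jagged1 1 and Jagged1 2. Per kilobase of exon, the order in the vector libraries was Slfn2 (111 ± 17.0 CPM per kb, SD, n = 2), Slfn9 (42.3 ± 5.1), Slfn8 (17.6 ± 0.328), Slfn3 (3.81 ± 1.08), Slfn4 (1.3 ± 0.526), Slfn5 (0.0659 ± 0.0342) and Slfn1 (0.0354 ± 0.0501). The libraries of each gene from Slfn2 to Slfn4 lay above those of the next, while Slfn5 and Slfn1 rested on so few counts that their order was not detectable at this depth. In the Jagged1 libraries Slfn3 averaged 0.431 ± 0.228 CPM per kb and Slfn4 0.687 ± 0.523 CPM per kb, and these ranges overlapped. Slfn3 thus stood above Slfn4 in the vector libraries, and the 2 genes were not separable in the Jagged1 libraries. In reads rather than per length, Slfn9 and Slfn2 together took between 81.1% and 83.2% of the family's counts in every library.

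**Figure D1:**
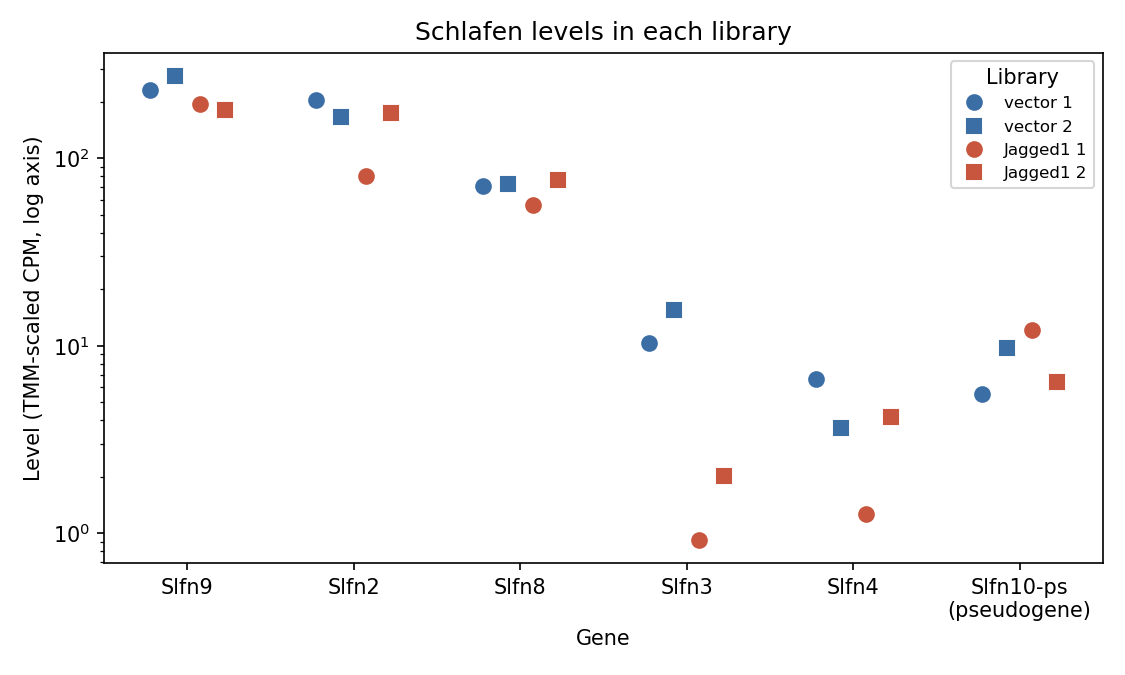
Level of each Schlafen gene (TMM-scaled CPM, log axis) in the 4 libraries, with vector libraries in blue, Jagged1 libraries in red, circles for replicate 1 and squares for replicate 2. Slfn3 stands at 10.4 and 15.6 CPM in vector and 0.919 and 2.02 CPM in Jagged1 libraries, Slfn9 has both Jagged1 points below both vector points, and Slfn2, Slfn4 and Slfn8 have a low point in Jagged1 1.

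Slfn3, studied in rodents mainly for its part in the differentiation of intestinal epithelium, was the member with the widest gap. Its counts were 157 in vector 1, 192 in vector 2, 19 in Jagged1 1 and 28 in Jagged1 2. The exact 95% Poisson intervals, which cover counting error only, were 133 to 184 and 166 to 221 counts against 11.4 to 29.7 and 18.6 to 40.5 counts. In CPM these were 10.4 and 15.6 against 0.919 and 2.02, so that the lines did not overlap and the gap was wider than the spread within either. The vector mean was 13.0 ± 3.72 CPM and the Jagged1 mean 1.47 ± 0.78 CPM (SD, n = 2 per line), an 8.84-fold lower level in Jagged1 cells. The log2 difference from the edgeR fit was -3.17 ± 0.485 (SE). Taken by replicate number, the difference was -3.32 for number 1 and -2.87 for number 2. Among the 13299 genes tested, 5 had a lower log2 difference than Slfn3. Its level in the vector line was modest, above 33.8% of tested genes.

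Which members were called depended on the method. With edgeR 0 of the 5 tested members were among the calls (0.00752% of all tested genes), and limma-voom gave 0 as well. DESeq2 called 1 member, Slfn3, as lower, where it called 0.353% of tested genes and 0.211% as lower. Slfn3 was also the 1 member called by edgeR with the replicate number as a block (0.128% of genes called), without the low-count filter (0.686%), without Jagged1 1 (1.38%) and without Jagged1 2 (0.352%), and it was not called without vector 1 or vector 2. Its log2 difference was -2.68 without Jagged1 1, -3.81 without Jagged1 2, -3.41 without vector 1 and -2.84 without vector 2. These calls come from the contrast with which the members were proposed, and nothing is read from them.

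**Figure D2:**
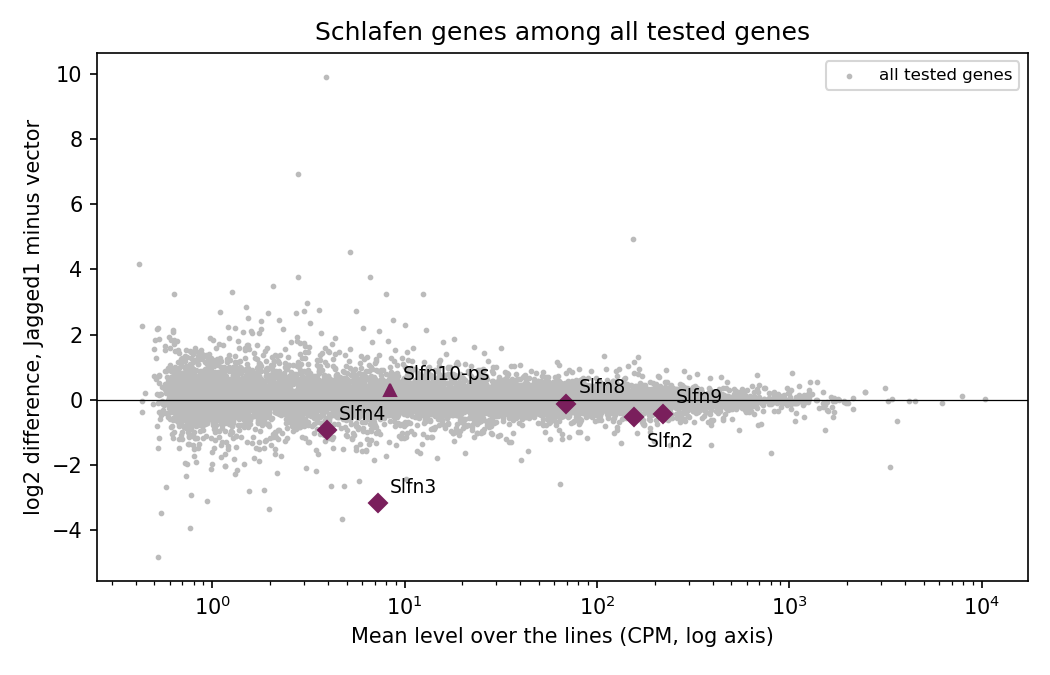
Log2 difference (Jagged1 minus vector) of all 13299 tested genes in grey against the mean level over the lines (CPM, log axis), with the 5 tested Schlafen members as diamonds and the pseudogene Slfn10-ps as a triangle. Slfn3 lies at -3.17, far below the other members, which lie between -0.94 and -0.116.

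Slfn4 is the gene next to Slfn3 and is known as an interferon-induced gene of macrophages and other myeloid cells. It had 100 counts in vector 1, 45 in vector 2, 26 in Jagged1 1 and 58 in Jagged1 2, which is 6.61 and 3.66 CPM against 1.26 and 4.19 CPM. Jagged1 1 was the lowest, while Jagged1 2 lay between the vector libraries, so the lines overlapped. The log2 difference of -0.94 ± 0.655 (SE) changed with single libraries: it was -0.306 without Jagged1 1, -2.028 without Jagged1 2, -0.424 without vector 1 and -1.305 without vector 2. By replicate number it was -2.28 for number 1 and 0.19 for number 2.

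The ratio of the neighbours does not depend on how libraries are scaled. Slfn3 made up 61.1% of the summed Slfn3 and Slfn4 counts in vector 1 (157 of 257, exact 95% binomial interval 54.8 to 67.1%) and 81% in vector 2 (192 of 237, 75.4 to 85.8%). In Jagged1 1 the share was 42.2% (19 of 45, 27.7 to 57.8%) and in Jagged1 2 it was 32.6% (28 of 86, 22.8 to 43.5%). Both Jagged1 libraries were below both vector libraries, although the intervals of vector 1 and Jagged1 1 overlapped. Within the vector line the intervals did not meet, so the share also varied between libraries of 1 line by more than counting error. Shared windows between these genes mean that part of their reads may have been left out or misplaced, by an amount that was not tested.

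**Figure D3:**
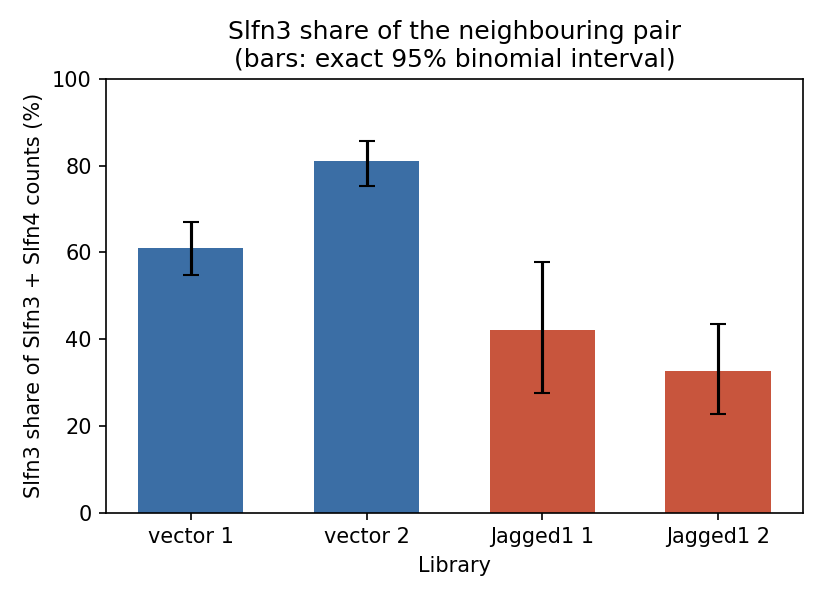
Share of Slfn3 in the summed Slfn3 and Slfn4 counts (percent) by library, vector in blue and Jagged1 in red, with exact 95% binomial intervals that cover counting error only. The vector libraries stand at 61.1% and 81%, the Jagged1 libraries at 42.2% and 32.6%.

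Slfn2, a short member required for the quiescence of T cells and monocytes, was the most abundant member per kilobase. It had 205 and 165 CPM in the vector libraries and 80.2 and 175 CPM in the Jagged1 libraries. Jagged1 1 stood apart and Jagged1 2 lay within the vector range, so the lines overlapped. The log2 difference was -0.539 ± 0.379 (SE), but -0.085 without Jagged1 1 and -1.205 without Jagged1 2, and it was -0.353 without vector 1. By replicate number it was -1.35 for number 1 and 0.08 for number 2. Slfn2 and Slfn4 had the same order of libraries, vector 1, Jagged1 2, vector 2 and Jagged1 1, whereas Slfn3 was highest in vector 2. Jagged1 1 also had the lowest summed level of 15 leukocyte markers, 5.08 CPM against 23.1 and 22.2 CPM in the vector libraries and 46.1 CPM in Jagged1 2. The largest term of that sum in every library was S100a8, at 1.69 CPM in Jagged1 1 and between 10.5 and 33.4 CPM elsewhere. Cd68 was also lowest in Jagged1 1 (0.145 CPM), and Lyz2 was at 0 there and in vector 1. Csf1r and Flt3 were not lowest in Jagged1 1. Csf1r had 1.55 CPM there against 0.661 and 1.3 CPM in the vector libraries, and Flt3 1.21 CPM against 1.52 and 0.651 CPM. The part of these markers in the Slfn2 and Slfn4 values was not tested. In bulk RNA, fewer cells that express a gene and less RNA per cell cannot be told apart.

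Slfn9, a long member, was the most heavily read of the family and the second gene in which the lines did not overlap. Its levels were 231 and 274 CPM in the vector libraries and 194 and 181 CPM in the Jagged1 libraries. The vector mean was 253 ± 30.7 CPM and the Jagged1 mean 188 ± 9.27 CPM (SD, n = 2 per line), a 1.34-fold lower level. The log2 difference was -0.426 ± 0.163 (SE), with -0.25 and -0.60 within numbers 1 and 2, and it stayed between -0.524 and -0.305 when any 1 library was left out. Slfn8, its close copy on the same strand, had 70.9 and 72.8 CPM in the vector libraries and 56.4 and 76.3 CPM in the Jagged1 libraries. The Jagged1 values of Slfn8 lay on both sides of the vector values. Its log2 difference was -0.116 ± 0.194 (SE), turned positive without Jagged1 1 (0.087) and was -0.348 without Jagged1 2. Slfn8 made up 23.5% and 21.0% of the summed Slfn8 and Slfn9 counts in the vector libraries, and 22.5% and 29.6% in the Jagged1 libraries.

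Slfn10-ps, a transcribed pseudogene related to Slfn8 and Slfn9, had the opposite sign. It stood at 5.55 and 9.69 CPM in the vector libraries and 12.1 and 6.43 CPM in the Jagged1 libraries, with overlapping lines and a log2 difference of 0.291 ± 0.437 (SE). It was highest in Jagged1 1, the library where Slfn2, Slfn4 and Slfn8 were lowest. The sign turned without vector 1 (-0.037) or Jagged1 1 (-0.238), and the value was 0.735 without vector 2 and 0.675 without Jagged1 2. Of its windows of 50 bases 19.7% occur in Slfn8 or Slfn9 transcripts.

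The remaining genes of the family were at or near the floor. Slfn1, named for its effect on T cell growth, had 2 and 0 counts in the vector libraries and 0 and 2 counts in the Jagged1 libraries. Slfn5, a long member studied in tumour cell motility, had 4 and 7 counts in the vector libraries and 2 and 3 counts in the Jagged1 libraries. Its exact 95% Poisson intervals, 1.09 to 10.2 and 2.81 to 14.4 against 0.242 to 7.22 and 0.619 to 8.77 counts, overlapped, so a difference was not detectable at this depth. Slfn14, known from platelets and red cell precursors, was at 0 in all 4 libraries, and the distant relative Slfnl1 had 1 count in Jagged1 1 alone. No fold is given for these genes.

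In total 2 of the 5 tested members, Slfn3 and Slfn9, had both Jagged1 libraries below both vector libraries, where 15.1% of all tested genes did. None had both above, against 13.9% of tested genes. The count of members below was 2 without vector 1 (28.9% of tested genes) or Jagged1 1 (37.7%), 4 without vector 2 (32.7%) and 5 without Jagged1 2 (33.2%). Slfn3 and Slfn9 were among them in each case, Slfn2 and Slfn4 only where vector 2 or Jagged1 2 was left out, and Slfn8 only without Jagged1 2.

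The genes around the cluster were examined because position had no part in choosing the members. Of 57 annotated genes within 500 kb of the cluster that are no Schlafen gene, 27 were in the count table and 13 passed the filter, with 6 positive and 7 negative log2 differences and a median of -0.001, beside -0.003 for all tested genes. In 2 of the 13 (15.4%) both Jagged1 libraries were below both vector libraries, close to the 15.1% of all genes. In 2 both were above, beside 13.9% of all tested genes. The genes below were the chemokine genes Ccl5, 334 kb to the right of the Slfn3 start, and Ccl9, at 382 kb. Ccl5, which attracts T cells, had a mean of 9.39 CPM in the vector and 3.19 CPM in the Jagged1 libraries, with a log2 difference of -1.563 ± 0.305 (SE, adjusted p = 0.894 with edgeR). Ccl9, which attracts myeloid cells, stood at -0.413 ± 0.288 (adjusted p = 1 with edgeR).

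The neighbours above were the DNA ligase gene Lig3 (0.274 ± 0.151) and the clathrin adaptor gene Ap2b1 (0.121 ± 0.148). Close to the cluster on the left, the DNA repair gene Rad51d was at -0.00077 ± 0.178 and the ribosome assembly gene Nle1 at -0.272 ± 0.272. On the right, Taf15 was at -0.176 ± 0.201 and the metalloprotease gene Mmp28 at -0.348 ± 0.675. Further neighbours, Zfp830, Rffl, Ccl6 and Wfdc18, had differences of 0.123, -0.044, 0.229 and 0.525. None of the 13 passed the adjusted threshold with edgeR, DESeq2 or limma-voom. An unadjusted edgeR p under 0.05 was found for 1 of the 13, beside 526 of all 13299 tested genes.

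**Figure D4:**
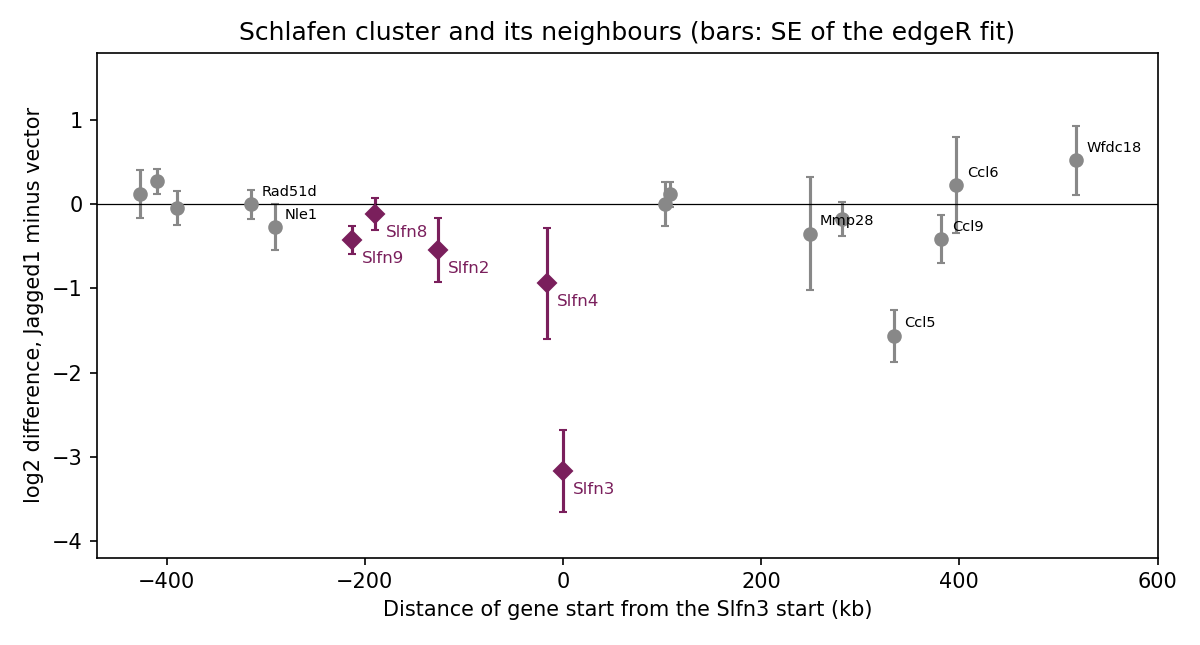
Log2 difference (Jagged1 minus vector, bars are the SE of the edgeR fit) against the distance of each gene's start from the Slfn3 start in kb, with the 5 tested Schlafen members as purple diamonds and the 13 tested neighbours as grey circles. Slfn3 lies at -3.17 and Ccl5 at -1.563, while the other neighbours lie between -0.413 and 0.525.

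Genes of the pathways in which Schlafen proteins act were then read from lists. The lists were filled by role, but with earlier results of these data known, so their values are a description. Interferon-inducible antiviral factors, which act on viral RNA, protein synthesis or retroviruses, had 22 tested members of 24 listed. Of these 18 had negative and 4 positive log2 differences, with a median of -0.259 beside -0.003 for all tested genes, and 0 were called in either direction with edgeR, DESeq2 or limma-voom. At an unadjusted edgeR p under 0.05 there were 6, all lower, where 526 of all 13299 tested genes passed that mark. In 15 (68.2%) both Jagged1 libraries were below both vector libraries, beside 15.1% of all tested genes. The GTPase gene Mx1 had 38.3 CPM in both vector libraries and 22.9 and 14.2 CPM in the Jagged1 libraries (log2 difference -1.04, adjusted p = 0.925 with edgeR). Ifit1, whose protein binds foreign RNA ends, had 463 and 466 CPM against 299 and 287 CPM (-0.666, adjusted p = 0.914 with edgeR). The nucleic acid sensor gene Zbp1 stood at -0.603 and the exonuclease gene Isg20 at -0.514. Slfn9, at -0.426, lay within the range of this list, and Slfn3 lay below all 22 of its tested genes.

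The signalling genes upstream of the family were more divided. Among 18 tested receptors, kinases, transcription factors and feedback regulators of the interferon pathway, with no interferon gene passing the filter, 11 had negative and 7 positive values, the median was -0.076, and 0 were called with edgeR, DESeq2 or limma-voom, with 2 at an unadjusted edgeR p under 0.05. Of all 13299 tested genes, 526 had an unadjusted edgeR p under 0.05. In 5 genes of the list (27.8%) both Jagged1 libraries were below both vector libraries, beside 15.1% of all tested genes. In 2 (11.1%) both were above, beside 13.9% of all tested genes. Usp18 (-0.453), Irf7 (-0.447) and Irf1 (-0.371), the last 2 being transcription factors of the interferon response, were among the lowest. Stat3 was highest, at 235 and 225 CPM in the vector libraries and 263 and 481 CPM in the Jagged1 libraries (0.694). The list's median was -0.256 without Jagged1 2, turned positive without Jagged1 1 (0.045) and was -0.147 without the low-count filter. Ifnb1, the interferon beta gene, named after its values were seen, had 10 and 5 counts in the vector libraries and 1 and 0 counts in the Jagged1 libraries and did not pass the filter.

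The list of enzymes that cut, splice, modify or repair transfer RNA, which also holds the ribonuclease inhibitor gene Rnh1, had 18 tested genes. Of these, 15 had negative and 3 positive values, with a median of -0.126. With any of the 3 tools 0 were called, and 0 had an unadjusted edgeR p under 0.05. In 7 (38.9%) both Jagged1 libraries were below both vector libraries, beside 15.1% of all tested genes. In none were both above, beside 13.9% of all tested genes. The median was -0.298 without Jagged1 1, -0.008 without Jagged1 2, -0.065 without vector 1 and -0.211 without vector 2. The 4 widest were the RNase P subunit genes Rpp38 (-0.496) and Pop1 (-0.308), the phosphotransferase gene Trpt1 (-0.399) and the methyltransferase gene Trdmt1 (-0.305). Genes known to hold cells in quiescence had 14 tested members, 8 positive and 6 negative, a median of 0.024 and 0 called with any of the 3 tools (0 at an unadjusted edgeR p under 0.05). This median was 0.178 without Jagged1 1, turned negative without Jagged1 2 (-0.174), and was 0.038 without vector 1 or vector 2 and 0.008 with limma-voom or the replicate block. In 1 of the 14 (7.14%) both Jagged1 libraries were below both vector libraries, beside 15.1% of all tested genes. In 2 (14.3%) both were above, close to the 13.9% of all tested genes. The transcription factor gene Klf4 stood at -0.717 and the antiproliferative gene Btg2 at -0.587, both lowest in Jagged1 1, while Runx1 was at 0.433 and the cell cycle inhibitor gene Cdkn1b at 0.34. Without Jagged1 1, where edgeR called 1.38% of all tested genes, the listed genes called included Mx1 (-1.43) and Stat3 (1.064). Without Jagged1 2, where edgeR called 0.352% of all tested genes, it called Klf4 (-1.361).

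**Figure D5:**
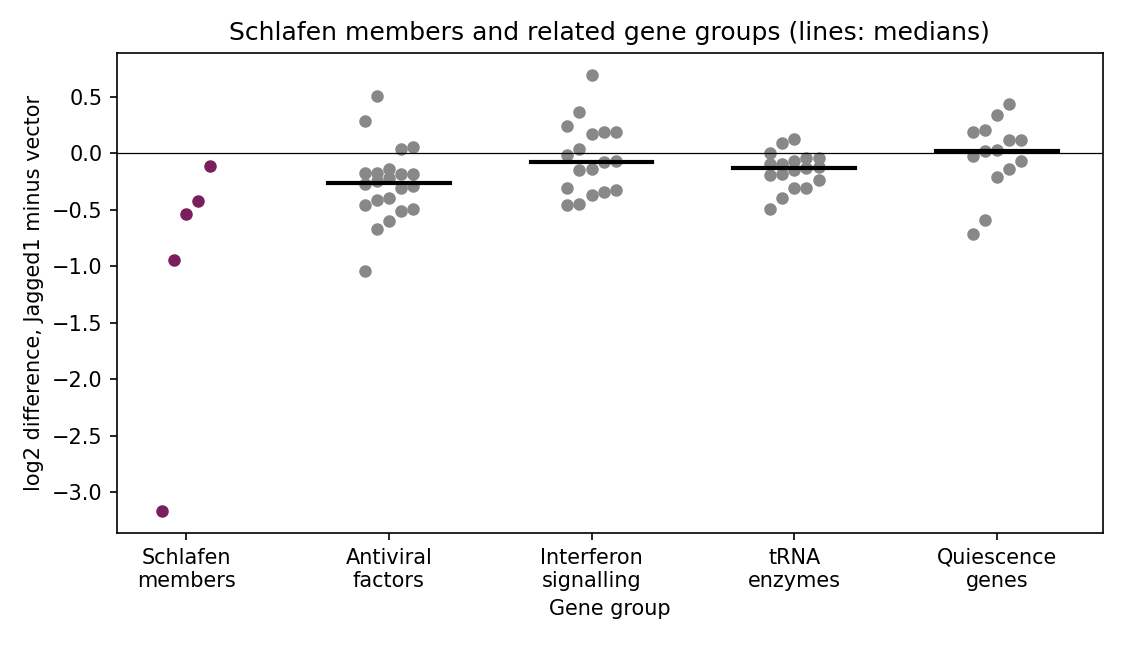
Log2 difference (Jagged1 minus vector) of the 5 tested Schlafen members in purple and of 4 related gene groups in grey, 1 point per gene, with black lines at the medians of the groups. The medians are -0.259 for antiviral factors, -0.076 for interferon signalling, -0.126 for tRNA enzymes (with the inhibitor gene Rnh1) and 0.024 for quiescence genes. Slfn3 lies below every point of all 4 groups.

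Likeness of pattern was measured as the distance between log2 CPM profiles centred on each gene's mean, over only 4 libraries. The genes nearest to Slfn9, the most heavily read member, were Sgms2 (0.0486), Stbd1 (0.0522) and Baiap2 (0.0553). For Slfn3, added after its values were seen, the nearest were Ifi209 (0.781), Cxcl11 (0.806), Trim30c (0.819), Unc13c (0.988) and Gm26902 (1.15). Cxcl11, a chemokine gene, had 9.78 and 7.65 CPM in the vector libraries and 0.532 and 0.867 CPM in the Jagged1 libraries. Trim30c had 3.64 and 3.58 CPM against 0.339 and 0.361 CPM. With Pearson correlation in place of distance, 0 of the 5 genes nearest to Slfn9 were the same. For Slfn3 the nearest were then Pdia3, Gm26902, Ndel1, Ralgapb and Rnf34, with only Gm26902 kept. These names therefore depend on the measure. In Jagged1 1, Ifi209 (0.0484 CPM) and Gm26902 (0.0968 CPM) lay under the detection floor of 0.145 CPM. Unc13c lay under the floor in both Jagged1 libraries (0.0968 and 0.0722 CPM).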

How the data were processed

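The authors deposited a table of raw counts, 1 row per gene symbol and 1 column per library, without normalization. Per the submitters' processing notes, STAR (version 2.6.0c), featureCounts (version 1.6.2) and the mm10 and GRCm38 builds were used. The annotation release and the settings were not given in the sources used here. Groups came from the cell line label. Low genes were removed with filterByExpr (edgeR 4.0.16, minimum count of 10). The 13299 genes kept were scaled with TMM and tested Jagged1 against vector with the quasi-likelihood F test in R 4.3.3, with Benjamini-Hochberg adjustment and a threshold of 0.05. SE is the absolute log2 difference over the square root of F. DESeq2 1.42.0 and limma-voom (limma 3.58.1) were alternatives. Scripts were tested on simulated data. An exact two-sided permutation test of 2 against 2 libraries cannot go below p = 0.333, so none was run. Log2 differences within a replicate number, and the distances between profiles, use a prior count of 2. The members, lists and neighbour rule were chosen with earlier results of these data known; list genes were named where called or, up to 4 per list, by the widest log2 difference. Genes nearest to Slfn3, the RBPJ motif and the shared promoter run were added after values were seen. Exon lengths, coordinates and transcript windows came from GENCODE M21, promoters from RefSeq (GRCm38.p6). Coding sequences were aligned with Biopython 1.88 in place of proteins, which were not used here. Some genes of the lists and of the neighbourhood are not reported here by name.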

Additional observations from a re-analysis of the deposited data

How the results depend on the processing

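Against 1 gene called in the comparison, DESeq2 called 47, a fit without the low-count filter 169, and fits leaving out 1 library between 0 and 193. A fit with the replicate number as a block (replicate block) called 17, Slfn3 among them (0.128% of genes called). Same-numbered libraries deviated together (r = 0.425 across genes), but the labels do not say that a number marks a shared batch. With 1 library left out the log2 differences ran from -3.806 to -2.675 for Slfn3, from -1.205 to -0.085 for Slfn2, from -2.028 to -0.306 for Slfn4 and from -0.348 to 0.087 for Slfn8. Members with non-overlapping groups numbered between 2 and 5, an alternative chosen after seeing the data. Of the listed pathway genes 0 were called, where edgeR called 0.00752% of all tested genes. Without the filter 1 was called, where 0.686% of all tested genes were. With 1 library left out between 0 and 3 were called. The 3 came without Jagged1 1, where 1.38% of all tested genes were called. The settings of edgeR with other scaling factors, a minimum mean of 1 CPM, limma-voom and DESeq2 gave 0. In a fit without 1 library, the lone library of a line is assumed to vary like the other line. Depth limits Slfn1 and Slfn5, which had 7 counts or fewer per library.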
